A study of Mus musculus with 42 samples.

Results

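Secreted BMP antagonists are extracellular proteins that bind bone morphogenetic proteins (BMPs), activins or both, and most of them keep these ligands from their receptors. The 9 genes Grem1, Nog, Chrd, Chrdl1, Fst, Fstl1, Sostdc1, Twsg1 and Nbl1 were taken by name from 19232 named genes in 12 tables of mouse RNA sequencing. Chrd, Twsg1 and Nbl1 were listed in all 12 tables, Fst in 6, Grem1 and Fstl1 in 5, Nog and Chrdl1 in 4, and Sostdc1 in 1.

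The study removed BMP signaling from Gli1+ stromal cells of the mouse colon and profiled the stromal cells, the Muc2+ goblet cells of the epithelium and colon organoids by RNA sequencing. All mice carried Gli1CreERT2, a tamoxifen-activated Cre recombinase made where Gli1 is expressed, so the controls carried the Cre too. Stromal cells were sorted by a tdTomato reporter from control (GWTT), Smad4-deleted (GS4T) and Alk3-deleted (GA3T) mice, and goblet cells by Muc2-mCherry from the corresponding GWTM2, GS4M2 and GA3M2 mice. Alk3 is the BMP type I receptor encoded by Bmpr1a, and Smad4 is the Smad shared by the BMP and TGF-beta pathways. Proximal and distal colon were collected on day 30 after tamoxifen, given on 5 days, with 2 libraries for each genotype, segment and cell type. The mice were 2 to 4 months old and of both sexes. Organoids from wild-type distal colon were cultured with 10 nM IL-1 (IL-1a and IL-1b), with 10 nM IL-17A or with neither for 12 h or 72 h, with 3 libraries in each group. Their medium held recombinant Noggin in every group. Tamoxifen-activated Cre deletes a gene only in cells that expressed Gli1 at the time of injection, and the goblet cells are not among them, so their own Smad4 and Alk3 were intact by design. The labels do not say whether libraries of a group came from separate mice or cultures, so every p-value measures the spread between these libraries only.

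BMP signaling is strongest toward the top of the crypt, where it favours differentiation of the epithelium and holds back stem cells. Around the crypt base, stromal cells secrete antagonists, with Gremlin 1 the best known in the colon, and so keep BMP signaling low beside the stem cells. Antagonists differ in what they bind: Noggin and the chordin and gremlin families hold BMPs, whereas follistatin binds activins most tightly.

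The 12 Gli1+ libraries held 14222902 to 23686940 reads on named genes and the 12 Muc2+ libraries 15647603 to 20783127. Smad4 was at 41.5 to 70.1 CPM (reads of a gene scaled to a common total of reads on named genes in each library) in GS4T and 94.9 to 109 in GWTT, and Bmpr1a at 105 to 125 in GA3T and 166 to 189 in GWTT. Smad4 fell in proximal GS4T (log2 fold change -1.09, adjusted p = 0.0100). In distal GS4T it was lower in both libraries, at 41.5 and 70.1 CPM against 109 and 105 in GWTT, but was not called. The Bmpr1a difference did not pass the test in either segment of GA3T. Gli1 itself stood at 1.40 CPM in the second proximal GS4T library and 1.98 in the second proximal GA3T library, against 38.0 to 99.6 in the other 10. Values without either library are given for the members against their controls, the interactions and the named pathway genes. Smad4 was called without that GS4T library too (-1.21, adjusted p = 0.0446). The labels name the tissue as epithelium throughout, but the 7 fibroblast markers summed to 40652 CPM or more in every Gli1+ library with none at 0, and the 8 epithelial markers to at most 1747 CPM. Within the Gli1+ libraries the epithelial sum ranged from 17.8 to 920 CPM in GWTT, from 709 to 1747 in GS4T and from 435 to 1094 in GA3T. By Xist reads, both distal GWTT libraries and all GS4T libraries were female, and the first proximal GWTT library and the first library of each GA3T segment were male.

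In stromal cells, controls and knockouts together, the antagonists spanned a wide range of levels. Per kilobase of exon, Fstl1, which encodes a follistatin-like protein of the extracellular matrix, lay at 253 to 420 CPM over the 12 Gli1+ libraries and took 43.3 to 51.6% of all member reads. Nbl1 (DAN), the founder of the DAN family that includes gremlin, lay at 172 to 294 CPM per kilobase and Grem1 at 54.2 to 253. Twsg1, a chordin-binding protein that can either block or promote BMP action, lay at 58.6 to 124 CPM per kilobase. These 4 genes held the first 4 places in every library, and their order among themselves changed from library to library. Chrd, which encodes chordin, held rank 5 in all 12 libraries, at 7.35 to 17.4 CPM per kilobase. Below it, over the same 12 libraries, Chrdl1, Fst and Nog overlapped at 0.458 to 8.43, 0.555 to 3.39 and 0.434 to 2.45 CPM per kilobase, and their ranks from 6 to 8 were exchanged between libraries. Sostdc1, a Wnt and BMP antagonist of the sclerostin family, was listed only in the distal GS4T table, with 10 and 3 reads in GWTT and 2 and 9 in GS4T, and was too low to test.

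**Figure D1:**
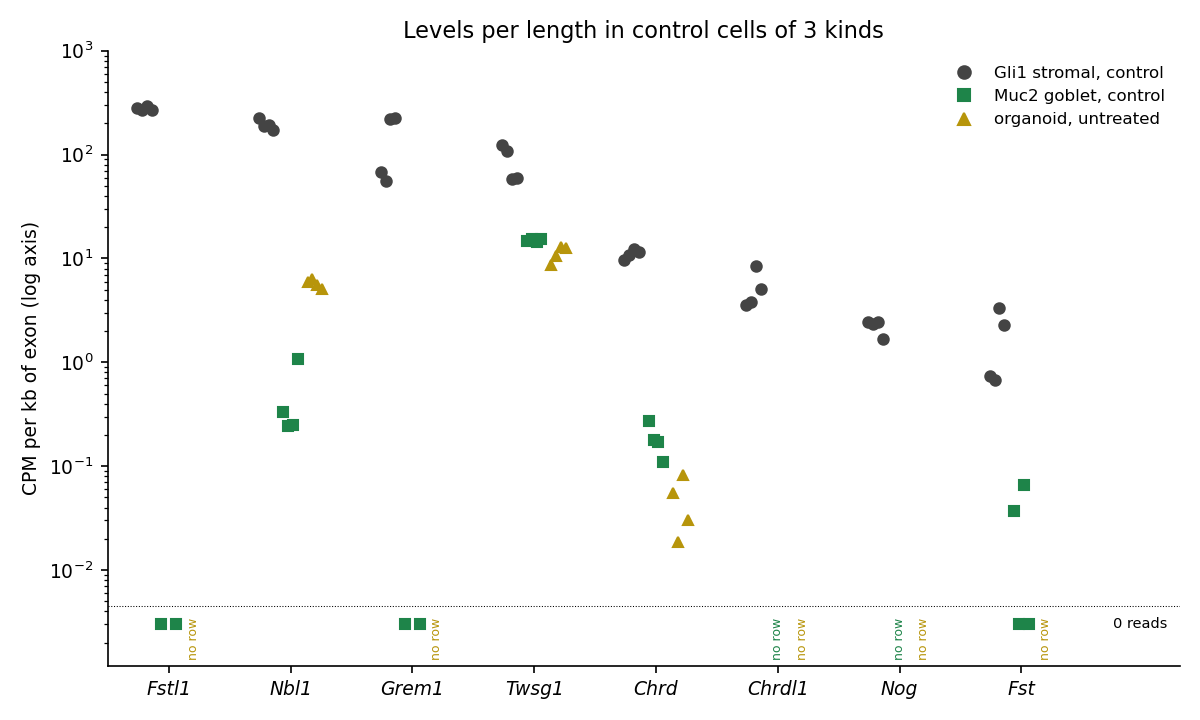
Levels of 8 antagonists in CPM per kilobase of exon (log axis) in control libraries only, with 1 point per library of Gli1+ stromal cells, Muc2+ goblet cells and untreated organoids; points under the dotted line had 0 reads, and "no row" marks a gene that the control tables of those cells do not list. Fstl1, Nbl1, Grem1 and Twsg1 lie above Chrd in the stromal libraries, and Twsg1 is the highest member in goblet cells and organoids.

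Chrdl1, Fst, Nog and Grem1 varied most between the stromal libraries. The highest library exceeded the lowest 18.4-fold for Chrdl1, 6.11-fold for Fst, 5.65-fold for Nog and 4.68-fold for Grem1, against 1.66-fold for Fstl1 and 1.71-fold for Nbl1. Because each library is a bulk sample, fewer cells of a type and less RNA per cell cannot be told apart in any of these values.

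The members lie on several chromosomes (GENCODE M21, GRCm38). Grem1 (ENSMUSG00000074934) spans chr2:113746164-113758646 on the minus strand, Fst (ENSMUSG00000021765) chr13:114452290-114458951 on the minus strand, Chrdl1 (ENSMUSG00000031283) chrX:143285674-143394262 on the minus strand and Twsg1 (ENSMUSG00000024098) chr17:65921972-65951226 on the minus strand. Chrd (ENSMUSG00000006958) and Fstl1 (ENSMUSG00000022816) share chromosome 16, at 20733127 to 20742384 and 37776873 to 37836514 on the plus strand.

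Sequence upstream of the start was available in RefSeq for 5 of the 9 members (Grem1, Chrd, Fstl1, Twsg1 and Nbl1). It is shown for Grem1, Chrd and Twsg1. Of the members shown, only Grem1 was called in the comparisons of stromal segments or genotypes described below. Chrd and Twsg1 differed there without a call. Fst and Chrdl1 were called there too, but had no such sequence. Each window (GRCm38.p6) ends at the base before the start, on the strand of the gene. The Grem1 window is chr2:113758649-113758898 on the minus strand, the Chrd window chr16:20732877-20733126 on the plus strand, and the Twsg1 window chr17:65951227-65951437 on the minus strand, with 211 of 250 bases kept because the rest overlaps an annotated exon. Capitals mark matches, on either strand, to GGCGCC (a GC-rich element bound by BMP Smads), CAGAC (the Smad box) and CCACCCA (the core of a Gli site).
Grem1: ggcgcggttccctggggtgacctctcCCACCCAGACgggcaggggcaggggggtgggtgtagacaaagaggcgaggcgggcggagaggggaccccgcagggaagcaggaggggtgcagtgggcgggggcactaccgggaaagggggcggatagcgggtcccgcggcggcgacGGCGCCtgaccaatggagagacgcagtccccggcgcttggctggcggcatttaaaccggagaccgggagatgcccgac
Chrd: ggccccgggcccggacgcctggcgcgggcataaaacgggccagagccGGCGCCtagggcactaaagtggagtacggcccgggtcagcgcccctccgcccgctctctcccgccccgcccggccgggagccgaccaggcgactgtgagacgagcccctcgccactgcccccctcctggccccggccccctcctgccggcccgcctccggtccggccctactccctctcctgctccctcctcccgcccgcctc
Twsg1: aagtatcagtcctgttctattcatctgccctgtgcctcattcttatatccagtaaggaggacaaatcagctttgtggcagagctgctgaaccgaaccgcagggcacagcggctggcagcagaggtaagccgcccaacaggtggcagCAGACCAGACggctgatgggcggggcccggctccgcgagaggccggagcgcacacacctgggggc

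The Grem1 window held GGCGCC 78 bases before the start, CAGAC at 219 and CCACCCA at 224, and the last 2 overlap. Chrd held GGCGCC 203 bases before the start, Nbl1 held it at 179, and Twsg1 held CAGAC at 104 and 99 in tandem. Over 32851 RefSeq windows of 250 bases, 9.59% held GGCGCC, 42.2% held CAGAC and 8.11% held CCACCCA, so a match to the Smad box is common. The windows of Grem1, Chrd and Twsg1 had 72%, 78% and 64.4% G and C, against a median of 52.4%. A match describes the letters only.

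The antagonists were mainly transcripts of the stroma. In control proximal colon, Grem1 and Fstl1 had 0 reads in both goblet libraries, and the stromal level was at least 11054-fold and 16461-fold higher against a floor of 3 reads over the group. Nbl1 was 293-fold and Chrd 84.0-fold higher in proximal stromal cells, and 713-fold and 45.2-fold higher in distal ones, by pooled CPM. Fst had 6 reads in proximal goblet cells and 3 in distal ones. Twsg1 was the exception in size: control goblet cells of the proximal colon held 76.0 CPM of it and those of the distal colon 77.7, and stromal cells 4.03-fold and 7.70-fold more. Twsg1, Chrd and Nbl1 rose in stromal against goblet cells in both segments, with log2 differences from 2.0 to 9.38 and adjusted p of at most 4.70e-05. Fst passed the filter on low values only through the stroma, so no test is given for it. Of all genes tested, 17.3% (proximal) and 18.8% (distal) were called higher in the stroma, and 43.5% and 43.2% were called in either direction.

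Between the segments of control colon, Fst was the antagonist called in stromal cells, and Grem1 and Twsg1 came next. Fst, the activin-binding follistatin, was at 15.2 and 10.6 CPM in the proximal libraries and at 3.40 and 3.10 in the distal ones. The proximal level of Fst was 3.96-fold higher, and it was the only one of 8 members called between segments (log2 difference 1.95 ± 0.39, SE; adjusted p = 0.0460), where 1.3% of all genes were called. The Fst call was lost when any 1 of the 4 control libraries was left out (adjusted p from 0.0698 to 0.249) and when sex was a term of the fit (log2 difference 1.71, adjusted p = 0.0999). Over the 14 alternatives run the log2 difference stayed between 1.69 and 2.21.

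Grem1, the main BMP antagonist of colonic stroma, showed the same order, with 919 and 939 CPM in proximal against 284 and 231 in distal control libraries. The segments did not overlap and differed 3.61-fold, but the difference missed the threshold in the fit over all 12 libraries (log2 difference 1.86 ± 0.49, SE; adjusted p = 0.102). It passed when only these 4 libraries were fitted (adjusted p = 0.00479). Beside it, the summed level of 7 trophocyte markers, genes of the CD81+ stromal cells below the crypts that are known for Grem1, was 8122 and 9088 CPM in proximal and 6204 and 4313 CPM in distal controls, with none of the 7 at 0. Most of each sum was C3, at 6260 and 7302 against 5097 and 3260 CPM. Pi16 went the other way, at 141 and 159 against 249 and 238 CPM. The sum of 7 telocyte markers, genes of the stromal cells near the crypt top, was 387 and 430 CPM in proximal and 1029 and 1058 in distal controls. That of 7 smooth muscle and myofibroblast markers was 490 and 364 against 1091 and 1028, and no marker of either list was at 0. Of these, F3 of the telocyte list overlapped, and Des and Tagln of the muscle list were higher in both proximal libraries. The part of these cells in the differences between segments was not tested.

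Twsg1 ran the other way, at 302 and 310 CPM in proximal and 638 and 558 in distal controls. Its distal level was 1.95-fold higher (log2 difference -0.96 ± 0.18, SE; adjusted p = 0.0347), just under the 2-fold size set for a call. Chrdl1 and Chrd were higher in both proximal than in both distal control libraries, by 1.82-fold and 1.17-fold, without passing the test. Nog, Fstl1 and Nbl1 overlapped between the segments.

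**Figure D2:**
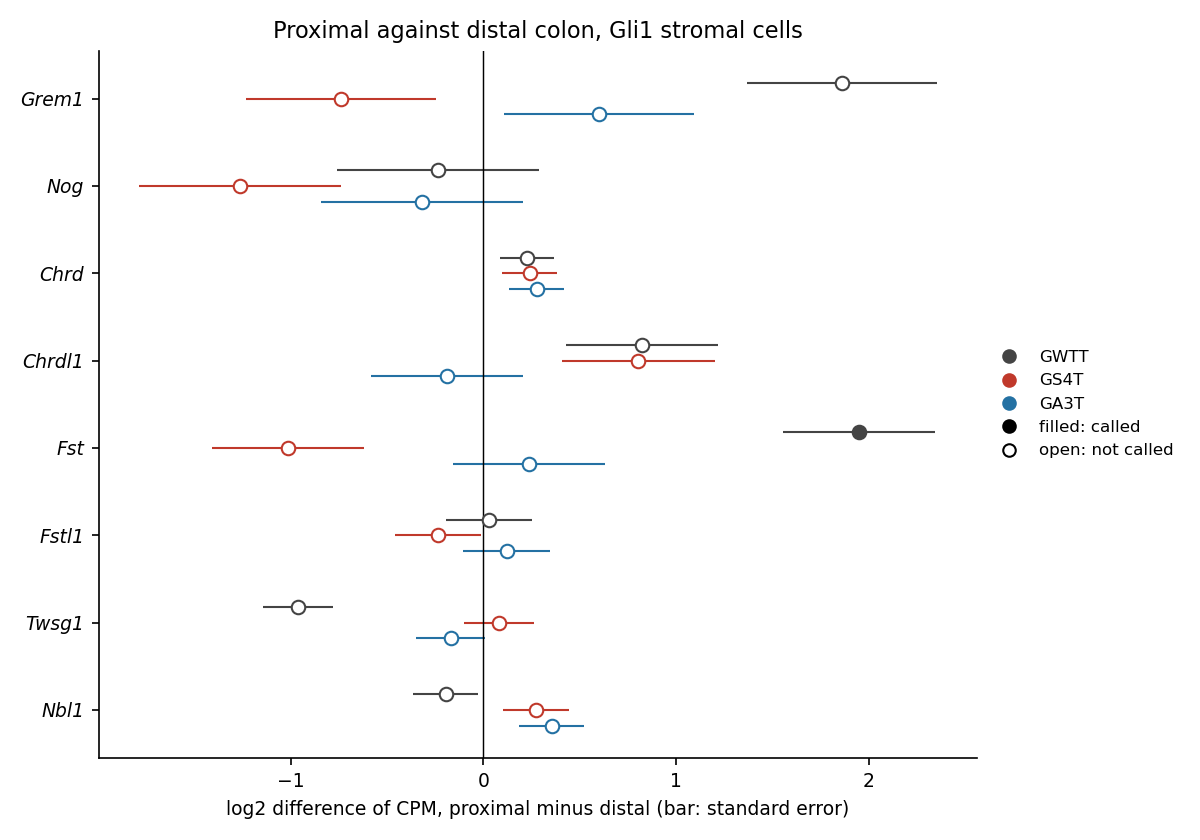
Log2 difference of CPM, proximal minus distal, for each antagonist in Gli1+ stromal cells of GWTT, GS4T and GA3T mice, with bars of 1 SE; filled points were called and open points were not. The estimates of Grem1 and Fst are above 0 in GWTT and below 0 in GS4T, and Fst in GWTT is the 1 filled point.

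In the knockouts no antagonist was called between the segments. In GS4T, Grem1 was at 464 and 836 CPM in proximal and at 1051 and 1029 in distal libraries, so the distal colon held more, and Fst was at 4.93 and 6.0 CPM in proximal and 7.83 and 15.5 in distal libraries. Neither difference passed the test (adjusted p = 0.907 and 0.645), and 0 of 8 members were called in GS4T, where 0.0782% of genes were. In GA3T, 0 of 8 were called either, with a background of 0.0847%, and Grem1, Fst and Twsg1 overlapped between the segments. At an unadjusted p under 0.05 together with the fold, 2 of 8 members (Fst and Nog) passed in GS4T and 0 of 8 in GA3T, where 2.89% and 1.47% of genes did.

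Smad4 deletion was followed by a higher Grem1 level in the distal colon. Distal Grem1 was at 4652 and 3750 normalized counts in GWTT and at 17227 and 17187 in GS4T. Both knockout libraries lay far above both controls, 4.10-fold by the means (log2 fold change 2.04 ± 0.14, SE; adjusted p = 0.00132). The call was made in all 14 alternatives run, with log2 fold changes of 1.89 to 2.20. In the same libraries the trophocyte markers summed to 2968 and 5082 CPM in GS4T and 6204 and 4313 in the controls, and the sums overlapped. Most of each sum was C3, at 2660 and 4765 against 5097 and 3260 CPM. Cd34 (132 and 123 against 713 and 660 CPM), Pi16 (71.7 and 68.4 against 249 and 238), Cd81 and Dpp4 were lower in both GS4T libraries. Rspo3 was higher in both, at 14.8 and 11.3 against 6.98 and 7.27 CPM, and Ackr4 overlapped. The 10 immune cell markers, none at 0, summed to 1706 and 1370 CPM in distal GS4T and 3940 and 5127 in distal GWTT. They did not move together. Jchain, at 107 and 432 against 3393 and 4705 CPM, and Cd79a were lower in both GS4T libraries. Lyz2 (940 and 516 against 310 and 170 CPM), Itgam (210 and 108 against 27.8 and 28.3), Adgre1, S100a8 and S100a9 were higher in both. Ptprc, Cd3e and Csf1r overlapped. The part of these marker genes in the distal differences of Grem1, Fst and Chrdl1 was not tested.

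In the proximal colon Grem1 was not higher: the controls had 15532 and 15571 normalized counts and GS4T had 7556 and 14287. Trophocyte markers were lower in the same GS4T libraries, at 3187 and 4832 CPM against 8122 and 9088 in the controls. Telocyte markers were higher, summing to 831.5 to 1256 against 387 to 430 CPM. Smooth muscle and myofibroblast markers summed to 980.5 to 1293 against 364 to 490 CPM, with Cnn1 and Myh11 overlapping. Immune cell markers summed to 1537 to 1546 against 1712 to 2986 CPM, with Lyz2 higher and Jchain lower in both GS4T libraries. The part of these cells in the proximal values of Grem1, Fst and Chrdl1 was not tested. The second of these GS4T libraries lay close to the controls in Grem1, and the difference did not pass (log2 fold change -0.58 ± 0.31, SE; adjusted p = 0.251). The Gremlin 1 transcript of distal GS4T cells thereby reached the level of the proximal controls, at 1051 and 1029 against 919 and 939 CPM.

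Fst was called in the distal colon too. Its distal level was 55.7 and 50.3 normalized counts in GWTT and 128 and 260 in GS4T, so both knockout libraries were higher, 3.66-fold by the means, but were also far from each other. The second, with more Fst, also had the higher sum of 6 endothelial markers, 204 CPM against 45.8 in the first and 55.1 to 60.3 in the controls, none at 0, and its part was not tested. It was called (log2 fold change 1.77 ± 0.40, SE; adjusted p = 0.0287), and the call was lost without distal GWTT library 1 or 2 or distal GS4T library 2 (adjusted p = 0.0992, 0.119 and 0.0783). Proximal Fst was 256 and 175 normalized counts in GWTT against 80.2 and 103 in GS4T, lower in both knockout libraries by 2.36-fold (log2 fold change -1.21 ± 0.30, SE; adjusted p = 0.0532).

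Chrdl1, which encodes chordin-like 1, fell in both segments of GS4T. Proximal Chrdl1 was at 963 and 568 normalized counts in GWTT and at 97.8 and 89.7 in GS4T. Distal Chrdl1 was at 394 and 421 in GWTT and at 54.0 and 51.7 in GS4T. All 4 knockout libraries lay below all 4 controls, with the control mean 8.16-fold higher in the proximal colon (log2 fold change -2.97 ± 0.29, SE; adjusted p = 0.00762) and 7.71-fold higher in the distal colon (-2.92 ± 0.22; adjusted p = 0.00156). The distal call was made in all 14 alternatives run. The proximal call was lost without GS4T library 1 (-3.03, adjusted p = 0.0743) or library 2, the one with little Gli1 (-2.91, adjusted p = 0.0575). Chrdl1 lies on the X chromosome, and in the proximal controls the male library held the higher value.

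Noggin itself was scarce, with 13 to 69 reads of Nog in a stromal library. Proximal Nog was at 70.3 and 47.1 normalized counts in GWTT and 12.0 and 20.9 in GS4T, and distal Nog at 67.5 and 64.9 against 27.5 and 55.2. Every GS4T library was below both of its controls, by 3.57-fold and 1.60-fold in the means, without passing the test (adjusted p = 0.0736 and 0.279).

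Chrd was lower in GS4T in both segments, at 791 and 1077 against 1312 and 1210 normalized counts in the proximal and at 784 and 768 against 997 and 1106 in the distal colon. The distal difference had an adjusted p of 0.0462 but a log2 size of only -0.44 ± 0.12 (SE), under the size set for a call. Twsg1 was lower in distal GS4T, at 6314 and 5102 against 10464 and 9056 normalized counts (log2 fold change -0.78 ± 0.15, SE; adjusted p = 0.0195), again under that size. In the proximal colon Twsg1 was at 6728 and 5449 in GS4T and 5108 and 5144 in GWTT, slightly higher in both knockout libraries (adjusted p = 0.273).

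Nbl1 was higher in proximal GS4T, at 8742 and 10211 against 6591 and 5786 normalized counts (log2 fold change 0.61 ± 0.14, SE; adjusted p = 0.0450), and overlapped its controls in the distal colon. Fstl1, the most abundant member, was at 20383 and 32774 against 24592 and 21734 normalized counts in the proximal and 33837 and 26960 against 22759 and 21492 in the distal colon. The proximal groups overlapped and neither Fstl1 difference passed (adjusted p = 0.707 and 0.130).

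Counted together, 1 of 8 members was called in proximal GS4T (Chrdl1, lower), where 9.61% of all genes were called and 4.36% called lower. In distal GS4T 3 of 8 were called (Grem1 and Fst higher, Chrdl1 lower), where 14% of genes were, 7.88% higher and 6.08% lower. The members' median log2 fold change was -0.51 (proximal) and -0.13 (distal), against 0.02 and 0.0049 for all genes. Groups did not overlap for 7 of 8 members in each segment, but they did not overlap either for 65.4% and 67.5% of all genes.

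Without the second proximal GS4T library, the one with little Gli1, 0 of 8 members were called in the proximal colon, where 2.35% of genes were. The log2 fold changes were then -1.04 for Grem1, -1.39 for Fst, -2.17 for Nog and -0.67 for Chrd, with adjusted p from 0.0611 to 0.168. Those of Twsg1 and Nbl1 were 0.39 and 0.50 (adjusted p = 0.186 and 0.177), so the adjusted p of Nbl1 no longer lay under 0.05. Fstl1 changed sign, to -0.18.

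**Figure D3:**
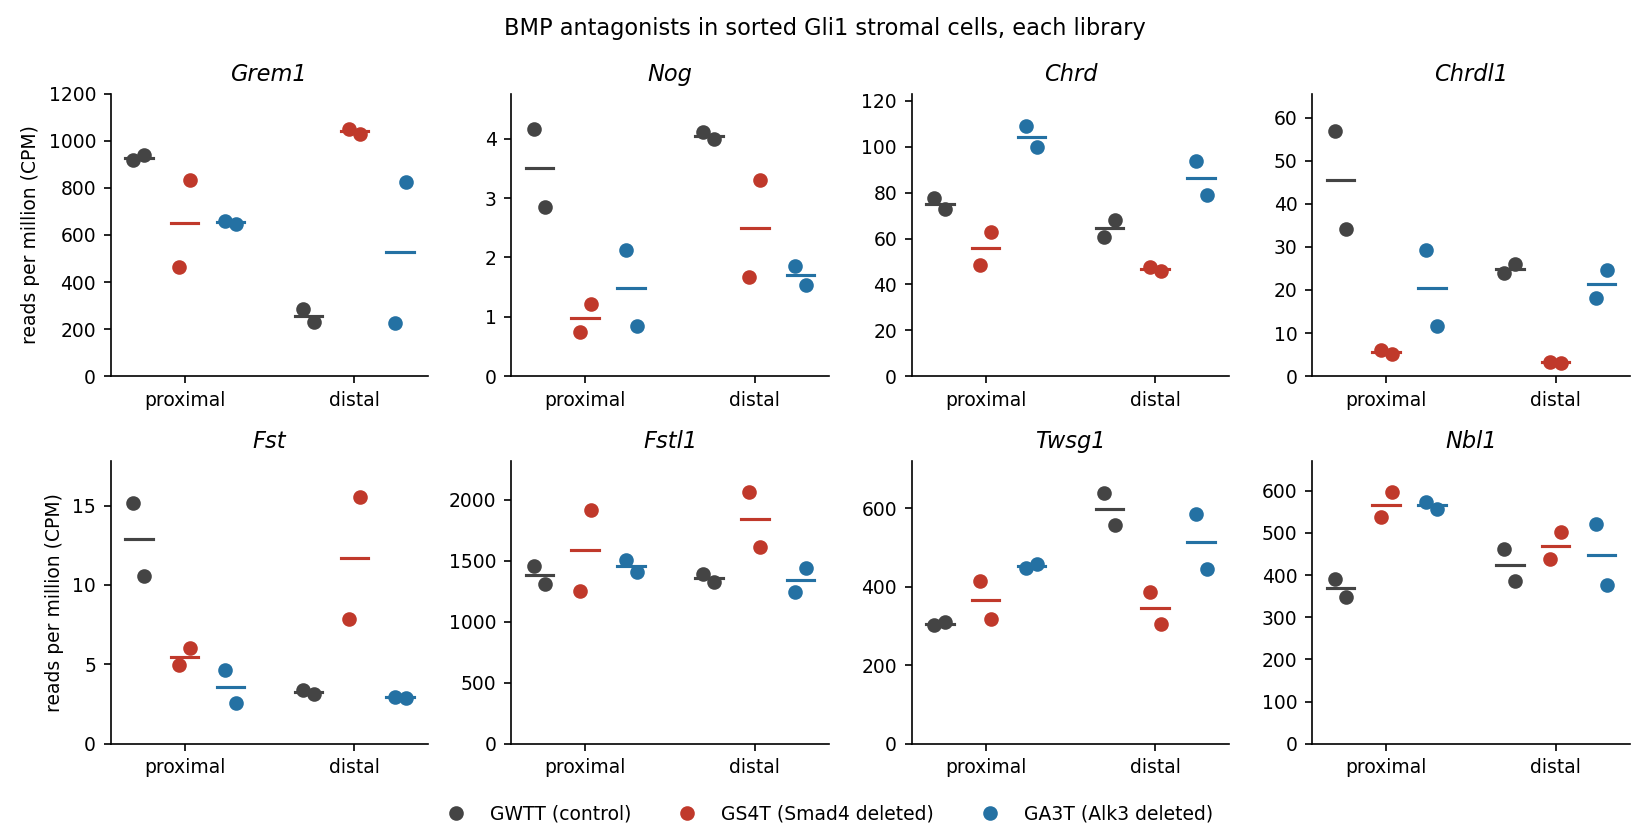
CPM (linear axis from 0) of 8 antagonists in Gli1+ stromal cells of the proximal and distal colon, with 1 point per library of GWTT, GS4T and GA3T and a line at each group mean. Both distal GS4T libraries of Grem1 lie above both distal controls, and Chrdl1 lies below its controls in both GS4T segments.

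Alk3 deletion was not followed by a called change in any antagonist. The GA3T tables hold the same control libraries as the GS4T tables, rescaled within each table, so the comparisons are not independent of each other. In the proximal colon 0 of 8 members were called, where 0.358% of genes were, and in the distal colon 0 of 8, where 0% were. At an unadjusted p under 0.05 with the fold, limma gave 1 member in each segment (Fst in the proximal, Nog in the distal colon), where 9.46% and 7.77% of genes passed. DESeq2 called Fst in the proximal colon and no member in the distal colon.

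Fst had the largest proximal difference, at 270 and 184 normalized counts in GWTT and 83.2 and 44.6 in GA3T. Both knockout libraries were lower, 3.55-fold by the means (log2 fold change -1.85 ± 0.41, SE; adjusted p = 0.115), and without GA3T library 2, which has little Gli1, it was -1.41. In the distal colon Fst was at 63.6 and 57.3 in GWTT and 52.6 and 55.3 in GA3T.

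Distal Grem1 was split within GA3T, at 3999 and 15939 normalized counts against 5307 and 4268 in GWTT. The first GA3T library was below both controls and the second was far above them, so no common direction was seen (log2 fold change 0.75 ± 0.63, SE; adjusted p = 0.560). The low library was male and the high one female, as were both controls. Without the low library the log2 fold change was 1.74 (adjusted p = 0.0138), and without the high one -0.25. Proximal Grem1 was at 11784 and 11359 in GA3T and 16342 and 16372 in GWTT (adjusted p = 0.155).

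Nog was below both controls in both segments of GA3T, at 38.1 and 14.9 against 74.0 and 49.6 normalized counts in the proximal and 33.1 and 29.8 against 77.0 and 73.8 in the distal colon. The control means were 2.33-fold and 2.40-fold higher (adjusted p = 0.284 and 0.185). Chrd lay on the other side of its controls from GS4T, at 1948 and 1751 against 1380.5 and 1272 normalized counts in the proximal and 1667 and 1525 against 1138 and 1258 in the distal colon. Neither passed (adjusted p = 0.129 and 0.185).

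Chrdl1 was at 525 and 205 against 1013 and 597 normalized counts in proximal GA3T (log2 fold change -1.24 ± 0.51, SE; adjusted p = 0.248) and overlapped its controls in the distal colon, at 322 and 476 against 450 and 479. Twsg1 and Nbl1 were above both controls in proximal GA3T, by 1.49-fold and 1.54-fold, and overlapped them in the distal colon (adjusted p from 0.0984 to 0.881). Without the second proximal GA3T library, the one with little Gli1, the log2 fold changes were -0.47 for Grem1, -0.66 for Nog, 0.56 for Chrd and -0.57 for Chrdl1, and 0.57 for Twsg1 and 0.66 for Nbl1, and none was called. Trophocyte markers summed to 6036 and 4324 CPM in proximal GA3T against 8122 and 9088 in GWTT. Telocyte markers summed to 1414 to 1785 against 387 to 430 CPM there, and smooth muscle and myofibroblast markers to 790 to 1184 against 364 to 490. Of the latter, Des was lower in both GA3T libraries and Cnn1 overlapped. The part of these cells in the member values was not tested. Fstl1 stayed within 1.06-fold of its controls in both segments and did not pass. In all, groups did not overlap for 7 of 8 members in the proximal and 3 of 8 in the distal colon, against 56.4% and 54.3% of all genes, and the median log2 fold change was -0.21 and -0.09 (0.01 and 0.01 for all genes).

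**Figure D4:**
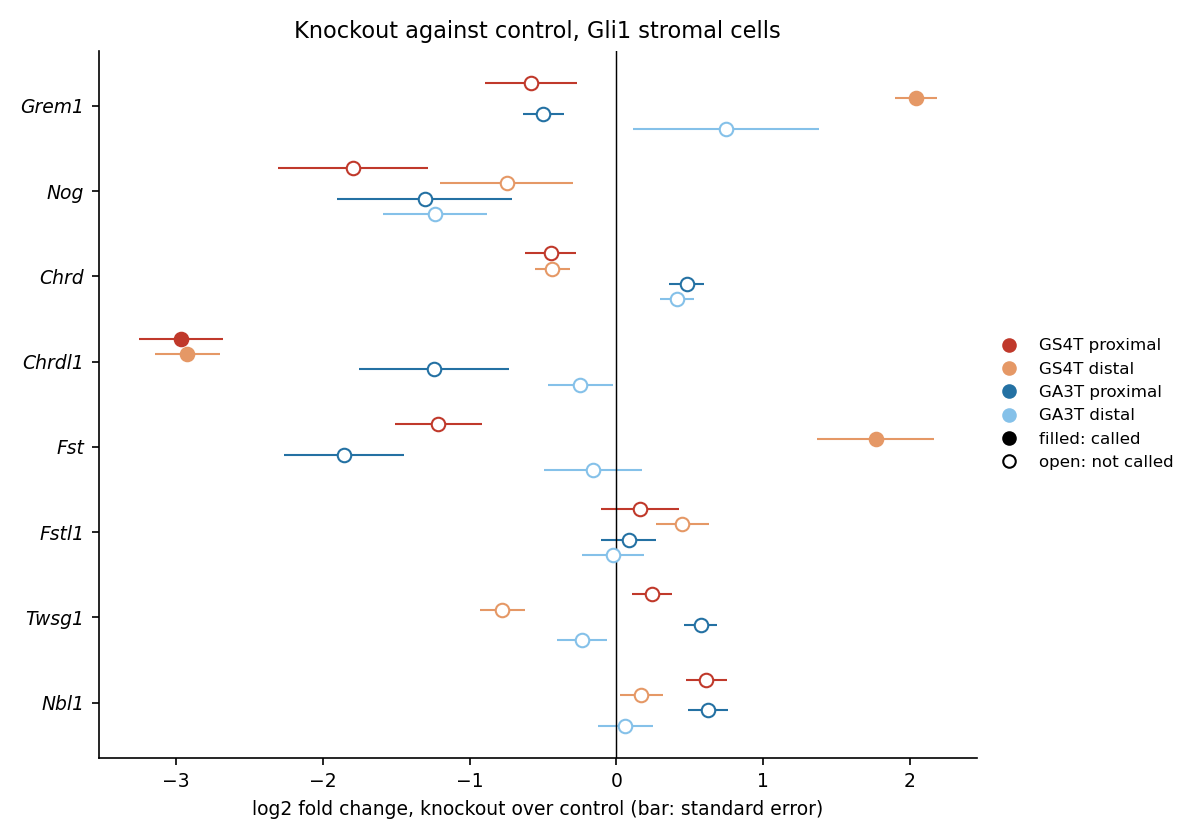
Log2 fold change with SE of each antagonist against GWTT in the 4 stromal comparisons; filled points were called and open points were not. Grem1, Fst and Chrdl1 are called in distal GS4T and Chrdl1 in proximal GS4T.

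Compared directly on CPM, the knockouts differed in the distal colon. Chrdl1 was at 3.30 and 3.09 CPM in GS4T and 18.1 and 24.7 in GA3T, and Fst at 7.83 and 15.5 against 2.95 and 2.87. Both were called (log2 difference of GS4T from GA3T -2.71 ± 0.40 for Chrdl1, adjusted p = 0.0154, and 1.90 ± 0.39 for Fst, adjusted p = 0.0426), 2 of 8 members where 2.06% of genes were called. Both calls were lost when only the 4 distal knockout libraries were fitted (adjusted p = 0.0660 and 0.171). Leaving out GA3T library 1 or GS4T library 2 ended both as well, leaving out GS4T library 1 ended that of Chrdl1 and leaving out GA3T library 2 that of Fst (adjusted p from 0.0501 to 0.166).

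Chrd was lower in GS4T than in GA3T at 47.8 and 46.0 against 93.6 and 79.1 CPM in the distal colon (log2 difference -0.88 ± 0.14, SE; adjusted p = 0.0197, under the size set for a call). The proximal order was the same, at 48.6 and 63.0 against 109 and 99.8 CPM (adjusted p = 0.0787). Proximal Chrdl1 was at 6.0 and 5.25 CPM in GS4T and 29.4 and 11.7 in GA3T (adjusted p = 0.199), and 0 of 8 members were called there, where 0.0782% of genes were. At an unadjusted p under 0.05 with the fold, limma gave 1 of 8 proximal members (Chrdl1), where 3.07% of genes passed, and DESeq2 called the same gene. Without the GA3T library with little Gli1, limma called Chrdl1 too (-2.38, adjusted p = 0.0470), and without the GS4T library with little Gli1 it did not (-1.62, adjusted p = 0.756).

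The difference between segments in the response to Smad4 deletion was tested as an interaction. Grem1 (log2 difference of the proximal from the distal change -2.62 ± 0.38, SE; adjusted p = 0.0629), Fst (-2.98 ± 0.53; adjusted p = 0.102) and Twsg1 (1.02 ± 0.22; adjusted p = 0.136) came closest and did not pass. Without the GS4T library with little Gli1 they were -3.08, -3.16 and 1.17 (adjusted p = 0.0589, 0.171 and 0.156). For these 3 genes both GS4T libraries lay on one side of their controls in the proximal colon and on the other side in the distal colon. Groups did not overlap for 65.4% (proximal) and 67.5% (distal) of all genes. The share of all genes on opposite sides was not counted. For Chrdl1 and Chrd the estimates were -0.04 and -0.01, with SEs of 0.36 and 0.22. No member was called for GS4T or GA3T, where 0.189% and 0% of genes were, and limma gave 3 of 8 members for GS4T (Grem1, Fst and Twsg1) and 1 of 8 for GA3T (Fst) at an unadjusted p under 0.05 with the fold, where 5.21% and 3.18% of genes passed.

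BMP ligands, activins and target genes in the same cells gave the setting of these values. Of 8 tested BMP ligands, 4 rose and 1 fell in proximal GS4T and 2 rose and 1 fell in distal GS4T. Of all genes, 9.61% and 14% were called there in either direction. The 8 take in Bmp8b, at 0 CPM in every GWTT library and 3.78 to 9.28 in GS4T. Bmp8b passed the filter on low values only through the knockouts, so its rise is no test result. The ligand counts of GS4T, which take it in, therefore cannot be weighed against these shares. Bmp7 was called in both GS4T segments (log2 fold change 2.62 ± 0.24 and 1.27 ± 0.11, SE). In proximal GA3T 3 of 9 ligands rose, Bmp3, Bmp5 and Bmp7. In distal GA3T 0 of 8 did, where 0.358% (proximal) and 0% (distal) of all genes were called. Bmp5 and Bmp7 are also on the list of telocyte markers. In the proximal colon that list summed to 387 to 430 CPM in GWTT, 831.5 to 1256 in GS4T and 1414 to 1785 in GA3T. In the distal colon it summed to 1029 to 1058, 1285 to 1665 and 1781 to 1873 CPM. The part of telocytes in the ligand values was not tested. The activin subunits Inhba and Inhbb, whose products follistatin binds, rose in both GS4T segments (log2 fold changes from 3.19 to 4.78). Without the proximal GS4T library with little Gli1, Bmp7, Inhba and Inhbb were still called (adjusted p from 0.0252 to 0.0301), and without the GA3T one, 0 ligands were. Inhba stood at 6.24 and 4.57 CPM in proximal controls and 192 and 116 in proximal GS4T, where Fst was not higher, and at 24.7 and 23.4 against 444 and 130 CPM in the distal colon, where Fst rose.

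Among the extracellular modulators outside the 9 members, Chrdl2, another chordin-like gene, rose where Chrdl1 fell. It was at 0.917 and 1.73 CPM in proximal GWTT and 28.6 and 38.9 in GS4T, and at 6.32 and 4.41 against 62.1 and 80.6 in the distal colon (log2 fold changes 4.66 and 3.75). Bmper, a BMP-binding regulator, rose in both segments, and Tll1 fell in proximal GS4T (-2.64). Without the library with little Gli1 the proximal values of Chrdl2, Bmper and Tll1 were 4.40, 1.46 and -2.69 and none was called (adjusted p from 0.0551 to 0.141). In distal GS4T no modulator other than Chrdl2 and Bmper was called, and in GA3T limma called 0 of 12 tested in either segment. At an unadjusted p under 0.05 with the fold, 2 were higher and 1 lower in proximal GA3T and 1 was higher in distal GA3T. Of all genes, 9.46% and 7.77% passed there in either direction.

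Of 10 tested BMP target genes, 3 fell in proximal GS4T (Id2, Id4 and Bambi) and 6 in distal GS4T (Id1, Id2, Id3, Id4, Bambi and Hey1), with list medians of -0.80 and -1.07. Of all genes, 4.36% and 6.08% were called lower there. None of these targets was called in GA3T by limma, with medians of -1.0 and -0.89. At an unadjusted p under 0.05 with the fold, 5 and 2 of them were lower, where 9.46% and 7.77% of all genes passed in either direction. Of 11 receptors and coreceptors, Rgmb fell in both GS4T segments and Acvr2a in the proximal one. Of the 4 Smads, Smad4 fell in proximal and Smad9 in distal GS4T. Without the proximal GS4T library with little Gli1, Smad4, Id4 and Rgmb were still called there, and Id2, Bambi and Acvr2a were not (adjusted p from 0.0536 to 0.0768). The median over all genes was at most 0.02 in each comparison.

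Over the 12 stromal libraries, Twsg1 ran against Grem1 and Fst. Pearson's r of log2 CPM was -0.868 for Twsg1 with Grem1 and -0.847 with Fst, whereas Grem1 and Fst had 0.666 and Chrd and Chrdl1 0.674. The points share genotype, segment and control libraries, so these values are a description. Among 11672 genes with a mean of at least 5 CPM, those most like Grem1 were Nfkbiz and Medag (r of 0.903 and 0.898), and those most like Chrdl1 were Zbtb20, Shank1 and Ggcx (r from 0.969 to 0.982). Scara5, Sgms2 and Carmil1 were most like Fst (r from 0.881 to 0.928), Sdc3, Gnb4 and Neo1 most like Twsg1 (0.932 to 0.947), and Abhd8, Tmtc1 and Ccnd3 most like Chrd (0.889 to 0.920). Erbb2, Zcchc9 and Tpgs1 followed Nbl1 (0.883 to 0.903) and Csgalnact1 and Notch3 followed Fstl1 (0.830 and 0.821).

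In goblet cells the deletion lay in the stroma, and the members listed there in every table were Twsg1, Chrd and Nbl1. Goblet Chrd was low but higher in every knockout library than in its controls. The 2 proximal GWTM2 columns held the same reads in the GS4M2 and GA3M2 tables for all 13686 genes listed in both, which sets the direction of each difference. Proximal Chrd was at 18 and 11.9 normalized counts in GWTM2 and 46.2 and 37.7 in GS4M2, and distal Chrd at 30.1 and 20.4 against 46.5 and 64.3. In GA3M2 it was at 65.4 and 194 against 19.2 and 12.6 in the proximal and 67.5 and 149 against 28.8 and 19.7 in the distal colon. Groups did not overlap in either direction for 50.2% (proximal) and 45.7% (distal) of all genes in GS4M2 and 52.1% and 44.2% in GA3M2.

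The 4 log2 fold changes of goblet Chrd ran from 1.11 to 2.78, and none passed by limma (adjusted p from 0.167 to 0.460), although DESeq2 called Chrd in both GA3M2 segments (adjusted p = 0.000589 and 0.0316). The same 2 GWTM2 libraries of each segment serve both knockouts. The immune marker sums were higher in GA3M2, at 24.5 to 33.8 CPM over the listed genes of 10 against 3.19 to 10.4 in GWTM2. Most of the GA3M2 sums was Lyz2, at 16.7 to 25.8 CPM against 0 to 0.34. Itgam was not higher, at 1.99 to 5.46 against 2.81 to 7.99 CPM, and the other listed genes stayed at 2.70 CPM or less. Goblet cell markers moved the other way, with sums of 9084 to 21200 CPM in GA3M2 against 29840 to 61480 in GWTM2, and 35570 to 47850 in GS4M2. The part of either in the Chrd values was not tested.

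Goblet Twsg1, the only member at a substantial level there, was at 1257 and 1350 normalized counts in proximal GWTM2 and 1139 and 1018 in GS4M2, and at 1344 and 1441 against 1167 and 1098 in the distal colon. Both GS4M2 libraries were below both controls in each segment, by a log2 fold change of -0.27 ± 0.11 and -0.30 ± 0.11 (SE), without passing (adjusted p = 0.293 and 0.469). In GA3M2 the proximal values were 1275 and 815 against 1338 and 1428, and the distal values overlapped.

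Goblet Nbl1 was uneven, at 25.2 and 220 normalized counts in proximal GA3M2 and 9.14 and 39.9 in GWTM2, and at 25.4 and 99.7 against 11.5 and 8.74 in the distal colon. Neither passed (adjusted p = 0.436 and 0.379). The second GA3M2 library was the high one in both segments. In GS4M2 the Nbl1 differences were smaller and did not pass (adjusted p = 0.918 and 0.618).

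Among the goblet tables, Grem1 and Fstl1 were listed only in that of proximal GA3M2, at 66 and 24 reads of Grem1 and 11 and 46 reads of Fstl1, against 0 in both controls. By pooled reads this was at least 27.5-fold and 17.4-fold higher against the floor of 3 reads. Both genes passed the filter on low values only through GA3M2, so no test is given for them. Fibroblast genes were present beside them: Col1a1 had 28 and 207 reads in these GA3M2 libraries and 1 and 0 in the controls, and Dcn 21 and 65 against 3 and 0. The fibroblast marker sum was at most 25.8 CPM in any Muc2+ library, and that highest sum was in the second proximal GA3M2 library. Per 1000 reads of Col1a1, Col1a2, Col3a1 and Dcn, Grem1 had 835 and 53.1 reads in these 2 libraries and 5.05 to 24.8 in the stromal libraries. The part of carried-over stromal RNA in these reads was not tested.

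Of Twsg1, Chrd and Nbl1, none was called in any of the 4 goblet comparisons by limma. The share of all genes called was 0.325% and 0% in proximal and distal GS4M2 and 0.0899% and 0% in GA3M2. At an unadjusted p under 0.05 with the fold, Chrd passed in all 4 and Nbl1 in distal GA3M2, where 4.28%, 2.7%, 6.83% and 4.12% of genes did.

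**Figure D5:**
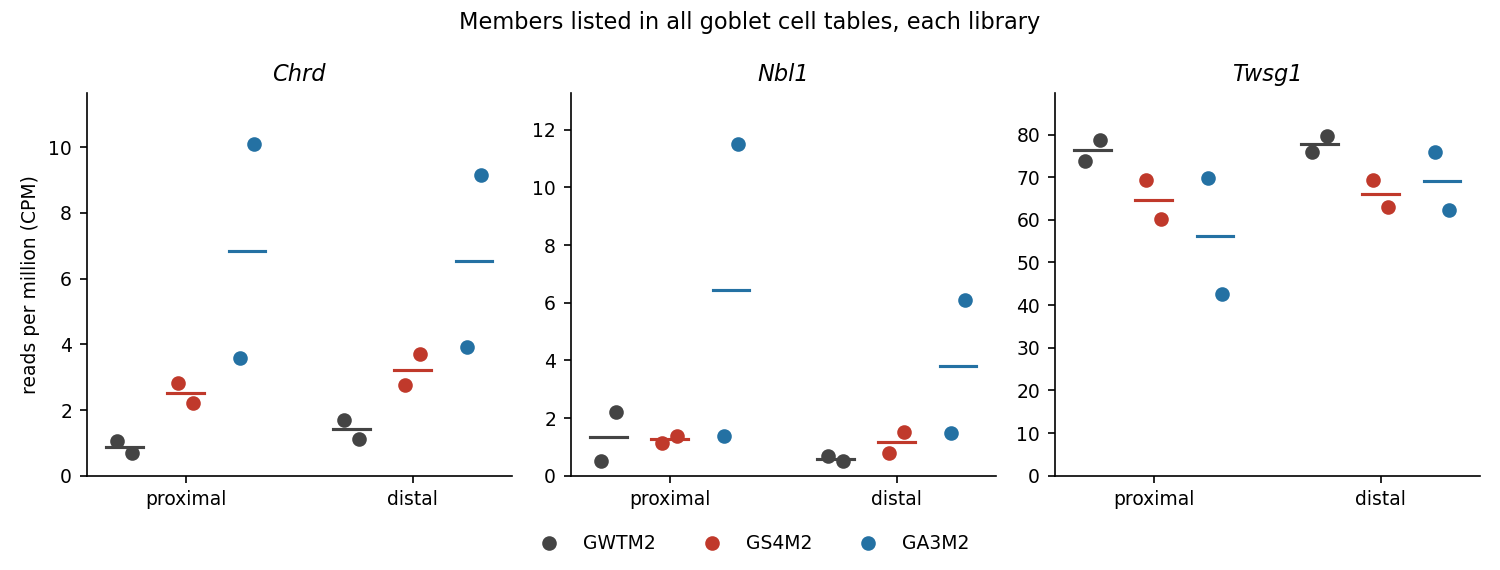
CPM (linear axis from 0) of Chrd, Nbl1 and Twsg1 in Muc2+ goblet cells of the proximal and distal colon, with 1 point per library of GWTM2, GS4M2 and GA3M2 and a line at each group mean. Chrd lies above both of its controls in every knockout library, and the 2 GA3M2 libraries of a segment lie apart for Chrd and Nbl1.

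Of the 3 organoid control libraries labelled 72 h, 2 held the same reads as 2 labelled 12 h, so the controls of the times are not separate samples, and a difference between times cannot be told apart from the cytokine in the 72 h values. In the 12 h IL-1, 12 h IL-17A and 72 h control groups, 2 of the 3 libraries differed from each other by a chi-square per degree of freedom of only 2.95, 3.22 and 3.19, against 17.0 to 197 for the other pairs within groups of the series. These pairs may be repeats of 1 sample, which would leave 2 distinct samples in those groups, and values with each pair averaged are given beside the 72 h results.

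Organoids, which hold epithelium without stroma, expressed Twsg1 and Nbl1, and Chrd stayed at 0.941 to 20.9 normalized counts, below the filter. At 72 h Twsg1 was at 829, 979 and 984 normalized counts in controls and at 568, 680 and 788 with IL-1. The 3 treated libraries were below the 3 controls (log2 fold change -0.46 ± 0.17, SE; adjusted p = 0.0649, and -0.42 and 0.201 with the near-identical controls averaged), and groups did not overlap in either direction for 54.7% of all genes. With IL-17A Twsg1 was at 560, 835 and 619 against 828, 974 and 982 in the same controls rescaled, and the groups overlapped (adjusted p = 0.121).

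Nbl1 at 72 h was at 193, 155 and 167 normalized counts in controls and at 131, 473 and 592 with IL-1, so 2 of 3 treated libraries were far above and 1 below all controls. It did not pass by limma (log2 fold change 0.96 ± 0.52, SE; adjusted p = 0.178), passed without the low IL-1 library (1.62, adjusted p = 0.00829) and was called by DESeq2 (adjusted p = 0.0269). With the near-identical controls averaged it was 0.91 (limma, adjusted p = 0.304). With IL-17A it was at 170, 187 and 459 (adjusted p = 0.361). At 12 h the log2 fold changes of Twsg1 and Nbl1 lay between -0.06 and 0.09 under either cytokine.

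No member was called by limma in organoids. The share of genes called was 0.0542% at 12 h and 23% at 72 h with IL-1, and 0.0385% and 7.94% with IL-17A. At an unadjusted p under 0.05 with the fold, 0 of the 2 tested members passed in each of the 4 comparisons, where 0.922% of genes at 12 h and 25.8% at 72 h did with IL-1 and 1.08% and 20.6% with IL-17A. The difference between times did not pass for Twsg1 or Nbl1 under either cytokine (adjusted p from 0.137 to 0.405). That fit took the controls that hold the same reads at both times as separate libraries, so its p-values cannot decide whether the times differ.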

How the data were processed

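RNA sequencing of 42 libraries was available as 12 tables, each of 1 treated or knockout group and its controls. As deposited by the authors, a value is a normalized signal: gene counts divided by 1 size factor per library within a table, after unique mapping to mm10 with STAR 2.5.3 and normalization with DESeq2 1.28.1 per the submitters' notes. The libraries were made with a SMARTer kit. The counting program, annotation and strand setting are not given in the sources used here, so reads from overlapping antisense genes cannot be told apart. All values were whole multiples of a step (within 0.1), so whole reads were recovered and CPM computed over named genes. Rows without a gene name, 4 in each GS4M2 table and 20.9 to 28.2% of the values there, were left out.

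Tables were fitted one at a time with limma 3.58.1 (R 4.3.3, trend) on log2(value + 1), for genes with a mean of at least 10. Comparisons across tables used log2(CPM + 0.05) and a mean of at least 0.5 CPM in 1 fit over all groups, which share 1 spread. A fold change on these scales understates that of low genes. Calls needed both an adjusted p (Benjamini-Hochberg, over every gene tested) below 0.05 and a 2-fold difference in either direction. Unless another tool is named, adjusted p come from limma, and tests are two-sided. Floors cover counting error only. CPM per kilobase used GENCODE M21 exon length.

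Members and lists were chosen with earlier results of these data known. Named genes are the 9 members, Smad4, Bmpr1a, Gli1, listed genes called in a stromal comparison or needed for a range, and the 3 genes most like each member, some of which are not reported here. The fits were tested on simulated data. Alternatives were another pseudocount, no or another filter, another scaling, edgeR 4.0.16 and DESeq2 1.42.0 on recovered reads, a replicate block, fewer groups and leaving out each library. A shared stromal fit, a term for sex and interactions without each library were chosen after seeing the data.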

Additional observations from a re-analysis of the deposited data

Results flagged for a closer look

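Grem1, Fst and Twsg1 lay on opposite sides of their controls in the 2 colon segments after Smad4 deletion in Gli1+ cells, with both GS4T libraries of each segment on the same side. Grem1 was below both controls in the proximal and above both in the distal colon, and the proximal log2 fold change minus the distal one was -2.62. Fst had the same order, with -2.98. Twsg1 had the opposite order, above its controls in the proximal and below them in the distal colon, with 1.02. Tested as an interaction with limma, none passed after adjustment over all genes (adjusted p = 0.0629, 0.102 and 0.136). The genes were flagged by this same pattern. Groups did not overlap for 65.4% (proximal) and 67.5% (distal) of all genes, and the share of all genes on opposite sides was not counted.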

How the results depend on the processing

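The calls of Grem1 and Chrdl1 in distal GS4T and of Twsg1, Chrd and Nbl1 between stroma and goblet cells were made under all alternatives run. The count of members called moved as follows. For GS4T against GWTT in the proximal colon it was 1, and 2 with a pseudocount of 10 or in the shared stromal fit, 3 with unadjusted p or DESeq2, and 0 to 2 without 1 library. For GA3T it was 0 in both segments, and 1 in the proximal colon with unadjusted p, DESeq2, the shared fit or that fit with sex, and 1 in the distal colon with unadjusted p (0 to 1 without 1 library). For goblet cells it was 0, and with unadjusted p 1 in each GS4M2 segment, 3 in proximal and 2 in distal GA3M2. With DESeq2 it was 3 in proximal and 1 in distal GA3M2 (both counts of 3 include Grem1 and Fstl1, which passed the filter only through GA3M2). For IL-1 at 72 h it was 0, and 1 with DESeq2 (0 to 1 without 1 library). Between segments of GWTT it was 1, and 2 with unadjusted p, DESeq2 or only these groups, and 0 with edgeR, with sex, or without any 1 library. In GS4T it was 0 between segments and 2 with unadjusted p. For GS4T against GA3T it was 0 in the proximal colon, and 1 with unadjusted p or DESeq2 (0 to 1 without 1 library), and 2 in the distal colon, 0 with only these groups (0 to 2 without 1 library). On the recovered reads, edgeR called 1452 genes of all tested in proximal and 2042 in distal GS4T (limma 1472 and 2130, DESeq2 2006 and 2404). In GA3T edgeR called 0 in each segment, limma 55 and 0, and DESeq2 969 and 776. In goblet cells DESeq2 called 147 to 431 genes, and edgeR 0 to 51 and limma 0 to 43. With the cytokines at 72 h, edgeR called 2971 (IL-1) and 869 (IL-17A), limma 2998 and 1038, and DESeq2 3189 and 2309. At 12 h edgeR called 2 and 4, limma 7 and 5, and DESeq2 43 and 51. The cause of these moves was not tested.

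No source used here says that replicate numbers mark shared mice or cultures, and no 2 groups compared share more than 2 numbers. Sorted libraries of different genotypes cannot share a mouse. By Xist reads, GWTT library 1 was female in the distal and male in the proximal colon, so these were different mice. Deviations of same-numbered libraries correlated at -0.0573 to 0.302 over 16 pairs of sorted cells and -0.186 to 0.637 over 8 of organoids. Some same-numbered organoid libraries lay closer across treatments than within a group (chi-square per degree of freedom 4.44 for IL-1 and IL-17A number 1 at 12 h and 7.71 at 72 h, against 57.8 to 104 for these libraries within their groups), so a shared origin in the organoids was not settled. With the replicate number as a block, Chrd and Nbl1 were called in proximal GA3M2, where 5.24% of genes were against 0.0899% without it. Grem1 and Fstl1 were called there too, but they passed the filter on low values only through GA3M2, so their calls are no test result. With the block, 0 members were called between GWTT segments and 1 between GS4T and GA3T in the distal colon. Nbl1 under IL-17A at 12 h changed sign to 0.016. The block changed no other call.

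Small differences changed sign. Nbl1 was -0.045 in distal GA3T in the shared fit with sex, -0.10 with edgeR and -0.12 with DESeq2 in proximal GS4M2, and -0.0021 with TMM, -0.013 with edgeR and -0.0070 with DESeq2 for GS4T against GA3T in the proximal colon. The Nog interaction in GA3T was 0.013 with a pseudocount of 10 and 0.0090 with edgeR. Without 1 library, log2 fold changes that changed sign ranged as follows. Fstl1 ranged from -0.18 to 0.50 (GS4T against GWTT proximal), -0.0058 to 0.17 (GA3T against GWTT proximal), -0.19 to 0.14 (GA3T against GWTT distal), -0.048 to 0.10 (proximal against distal GWTT), -0.54 to 0.071 (proximal against distal GS4T), -0.22 to 0.40 (GS4T against GA3T proximal). Grem1 ranged from -0.25 to 1.74 (GA3T against GWTT distal), -0.34 to 1.54 (proximal against distal GA3T), -0.49 to 0.36 (GS4T against GA3T proximal). Chrdl1 ranged from -0.53 to 0.037 (GA3T against GWTT distal), -0.85 to 0.47 (proximal against distal GA3T). Nbl1 ranged from -0.11 to 0.24 (GA3T against GWTT distal), -0.81 to 1.2 (GS4M2 against GWTM2 proximal), -0.075 to 0.079 (GS4T against GA3T proximal), -0.15 to 0.32 (GS4T against GA3T distal). Twsg1 ranged from -0.036 to 0.26 (IL1 against Control 12h), -0.19 to 0.11 (IL17A against Control 12h), -0.11 to 0.27 (proximal against distal GS4T), -0.37 to 0.030 (proximal against distal GA3T). Nog ranged from -0.50 to 0.037 (proximal against distal GWTT), -0.96 to 0.32 (proximal against distal GA3T), -1.12 to 0.16 (GS4T against GA3T proximal), -0.016 to 0.94 (GS4T against GA3T distal). Fst ranged from -0.19 to 0.67 (proximal against distal GA3T). The interactions without 1 library were added after seeing the data and gave 0 calls. In GS4T, Chrd ranged from -0.23 to 0.21, Chrdl1 from -0.42 to 0.34 and Fstl1 from -0.63 to 0.054, and in GA3T Nog from -0.72 to 0.58, Chrd from -0.012 to 0.14 and Fstl1 from -0.058 to 0.27.

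With 2 libraries per group, depth was not the limit for Grem1, Fstl1, Twsg1 and Nbl1 in stroma, whereas Nog rested on 13 to 69 reads, and Fst and Chrdl1 on fewer than 1000 reads a library.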
